A study of Mus musculus with 18 samples.

Results

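The genes described here are 9 transcription factors that act in the formation of the eye field, lens and retina: *Six3*, *Rax*, *Pax6*, *Otx2*, *Mitf*, *Foxe3*, *Pitx3*, *Prox1* and *Maf*. They were taken by gene symbol from 34245 rows of expression values, of which 34244 carried a gene name, and each symbol matched 1 row. RNA-seq had been performed on 9 whole mouse embryos of the FVB strain at E11.5, 3 for each of 3 *Dnmt3b* genotypes. Dnmt3b+/+ embryos carried the wild-type gene, Dnmt3b-/- embryos carried on both chromosomes a conventional null allele derived from Dnmt3b 2loxP mice, and Dnmt3bCI/CI embryos were homozygous for a catalytically inactive knock-in in which 2 amino acids of the catalytic site had been replaced. They came from natural matings of heterozygotes, and only live embryos with a heartbeat had been processed. Dnmt3b is a DNA methyltransferase that adds methyl groups to cytosines of CpG dinucleotides, so the comparison asks how much of its role in the embryo depends on that activity. Values are FPKM, read numbers scaled to transcript length and library size, and all 9 transcription factors passed the expression filter.

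In the vertebrate eye, *Six3*, *Rax* and *Pax6* are among the eye field factors that define the region of anterior neural plate from which the optic vesicles grow, and *Otx2* acts upstream in the anterior neural plate. The optic vesicle then divides into neural retina and pigment epithelium, the latter under *Mitf* and *Otx2*. The overlying surface ectoderm thickens under *Pax6*, and becomes a lens vesicle that requires *Foxe3* and *Pitx3*. Cells at the back of the vesicle then elongate into primary fibres, in which *Prox1* and *Maf* (c-Maf) switch on the crystallins, the main proteins of the lens. A whole embryo holds many other sites of expression, such as forebrain and spinal cord for *Pax6* and *Six3*, midbrain for *Otx2*, midbrain dopaminergic neurons and skeletal muscle for *Pitx3*, and hepatoblasts, lymphatic endothelium and neurons for *Prox1*. In such bulk samples, fewer cells of a type and less RNA per cell cannot be told apart.

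The library totals worked back from the FPKM values ranged from about 38500000 to 49800000 reads. The level of *Dnmt3b* itself did not separate the null embryos as a loss of RNA would, since embryos 1 to 3 labelled Dnmt3b-/- had 2.45, 3.12 and 3.33 FPKM. Those of Dnmt3b+/+ had 2.25, 1.62 and 2.04 FPKM, and those of Dnmt3bCI/CI 2.06, 1.98 and 2.32 FPKM. A gene-level value cannot show which part of the transcript was read. Directions below are therefore given for the embryos labelled Dnmt3b-/-. Some libraries stood apart from others of their genotype in genes of whole tissues. Embryo 2 of Dnmt3b+/+ had 0.119 FPKM of the hepatoblast gene *Afp*, against 93.3 and 52.0 FPKM in embryos 1 and 3. Embryo 2 of Dnmt3bCI/CI had 2.81 FPKM of *Lhx2*, a LIM-homeobox gene of eye field and telencephalon, against 6.77 and 10.2 FPKM in embryos 1 and 3, and it had no reads of the lens crystallin *Cryaa*. The midbrain gene *En2* ranged from 0.0316 to 7.22 FPKM within the Dnmt3b+/+ embryos.

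The promoters of *Pitx3* and *Foxe3* are shown because *Pitx3* is the factor called lower below and *Foxe3* the lens factor that was not, and because CpG sites are what Dnmt3b methylates. Both run 5′ to 3′ from 250 bases before to 50 after the RefSeq start in GRCm38.p6, with each CpG in capitals.
Pitx3, chr19:46148276-46148575, minus strand: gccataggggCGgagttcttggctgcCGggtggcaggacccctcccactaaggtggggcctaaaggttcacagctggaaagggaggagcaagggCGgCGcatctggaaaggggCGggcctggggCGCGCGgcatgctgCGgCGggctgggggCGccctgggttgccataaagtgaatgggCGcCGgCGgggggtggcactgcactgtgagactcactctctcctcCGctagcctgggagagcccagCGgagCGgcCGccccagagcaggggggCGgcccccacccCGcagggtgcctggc
Foxe3, chr4:114926018-114926317, minus strand: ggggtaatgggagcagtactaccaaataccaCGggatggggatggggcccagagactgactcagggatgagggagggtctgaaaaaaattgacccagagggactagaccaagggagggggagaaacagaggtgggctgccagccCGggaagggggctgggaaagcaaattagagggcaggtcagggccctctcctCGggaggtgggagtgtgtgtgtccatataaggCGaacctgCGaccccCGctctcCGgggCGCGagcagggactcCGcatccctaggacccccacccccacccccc
The *Pitx3* promoter held 20 CpG and the *Foxe3* promoter 10, against a median of 7 over 32851 mouse promoters of the same length, so that 75.2% and 58.6% of those promoters held as many or fewer. Promoter entries were matched for 7 of the 9 genes, 14 entries in all, with 5 to 25 CpG each, the highest in a *Prox1* promoter. The homeodomain cores TAATCC and TAATTA, the Maf half-site TGCTGA and the E-box CACGTG, searched on both strands, had no match in either sequence shown here, while they occurred in 7.06%, 5.29%, 19.5% and 7.15% of all promoters. An *Otx2* promoter held 3 matches of TAATTA, 1 of TAATCC and 1 of TGCTGA. The methylation of these sites was not analysed here.

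In Dnmt3b+/+ embryos, the mean levels ran from *Maf* (4.88 ± 0.621 FPKM; SD, n = 3 here and below) and *Pitx3* (4.72 ± 1.08 FPKM) through *Otx2* (2.98 ± 1.29), *Prox1* (2.46 ± 0.301), *Pax6* (2.17 ± 0.279) and *Six3* (1.99 ± 0.331) to *Rax* (1.03 ± 0.385), *Foxe3* (0.572 ± 0.246) and *Mitf* (0.419 ± 0.043). Neighbours in that order overlapped in their ranges over embryos, with the exception of *Six3* and *Rax*. The place of *Rax* also depends on transcript length, since its FPKM values implied 1669 bases where the GENCODE M21 exons sum to 5846 bases. *Foxe3* was the most sparsely sampled, with 16 to 33 reads in each Dnmt3b+/+ embryo.

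**Figure D1:**
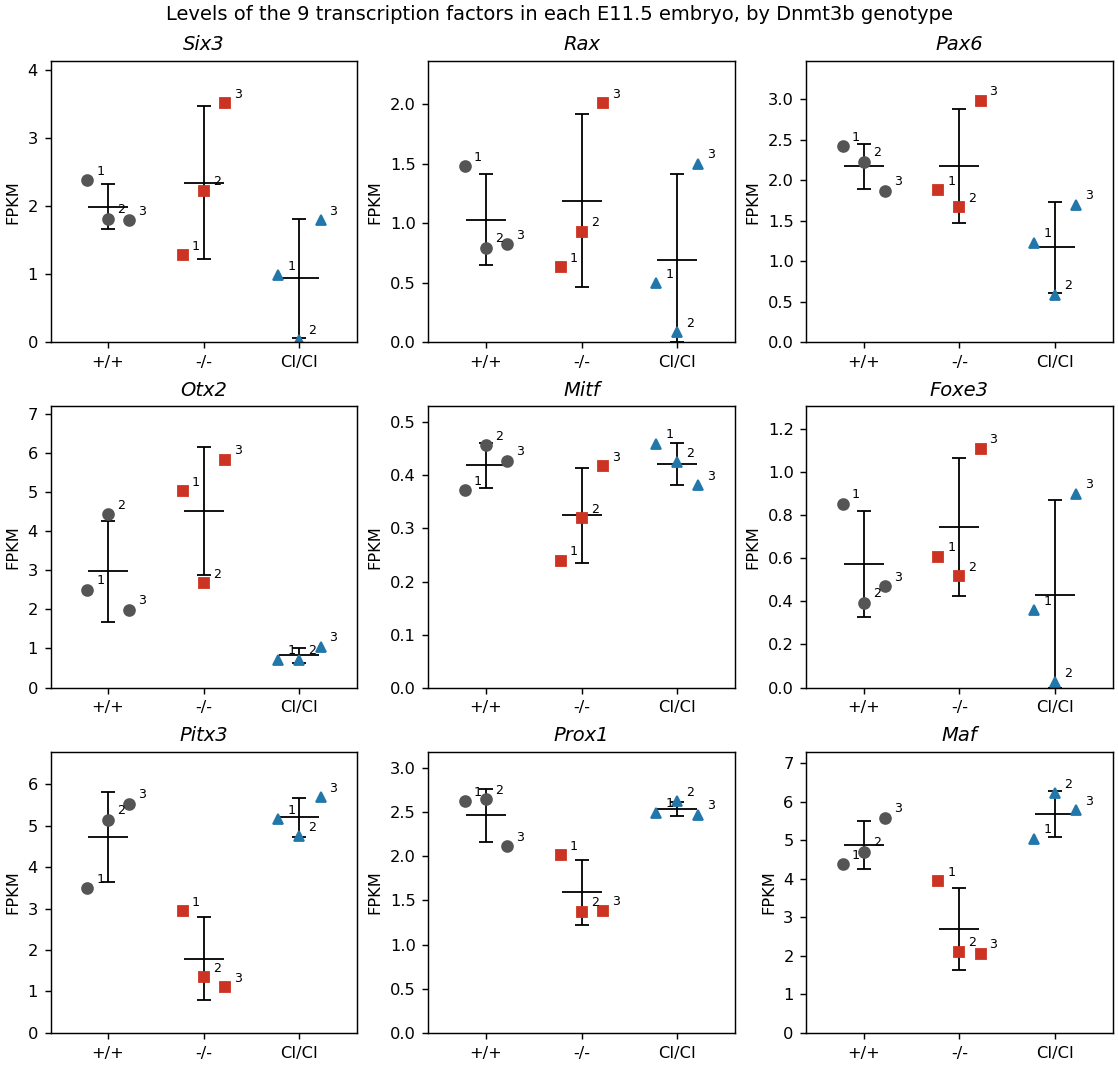
FPKM of each transcription factor (vertical axes, linear from 0) in 3 embryos of each Dnmt3b genotype (horizontal axes), with the embryo number beside each point, the mean as a horizontal bar and the SD as whiskers, which stop at 0. *Pitx3* lay at 1.10 to 2.94 FPKM in embryos labelled Dnmt3b-/- and at or above 3.49 FPKM in all others, while *Foxe3* and *Rax* spread widely within every genotype.

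Of the 9 transcription factors, 1 was called lower and 0 higher in embryos labelled Dnmt3b-/- than in Dnmt3b+/+ embryos. A call required an adjusted p below 0.05 from limma, with Benjamini-Hochberg adjustment over all 19397 genes tested, and at least a 2-fold change. By that rule 3.38% of all genes were lower and 1.07% higher. Without the fold requirement 3 of the 9 were lower and 0 higher, against 16.4% and 9.41% of all genes. The median log2 fold change of the 9 was -0.03, and that of all genes -0.07. The 655 lower and 208 higher calls over all genes became 392 and 272 after quantile normalization. None of the 9 was called between Dnmt3bCI/CI and Dnmt3b+/+ embryos, a comparison in which limma called 0.129% of all genes higher and 0% lower, or 0.129% and 0.0155% at any fold change. At an unadjusted p below 0.05, 2 of the 9 and 1019 of all 19397 genes passed in that comparison, and limma-voom on worked-back reads called 0 of the 9 and 20 of all genes. Between embryos labelled Dnmt3b-/- and Dnmt3bCI/CI, 1 was called higher and 2 lower, against 1.1% and 4.32% of all genes. At any fold change these were 1 and 3, against 9.7% and 18.2%. The 3 comparisons share groups of embryos and are not independent of each other.

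**Figure D2:**
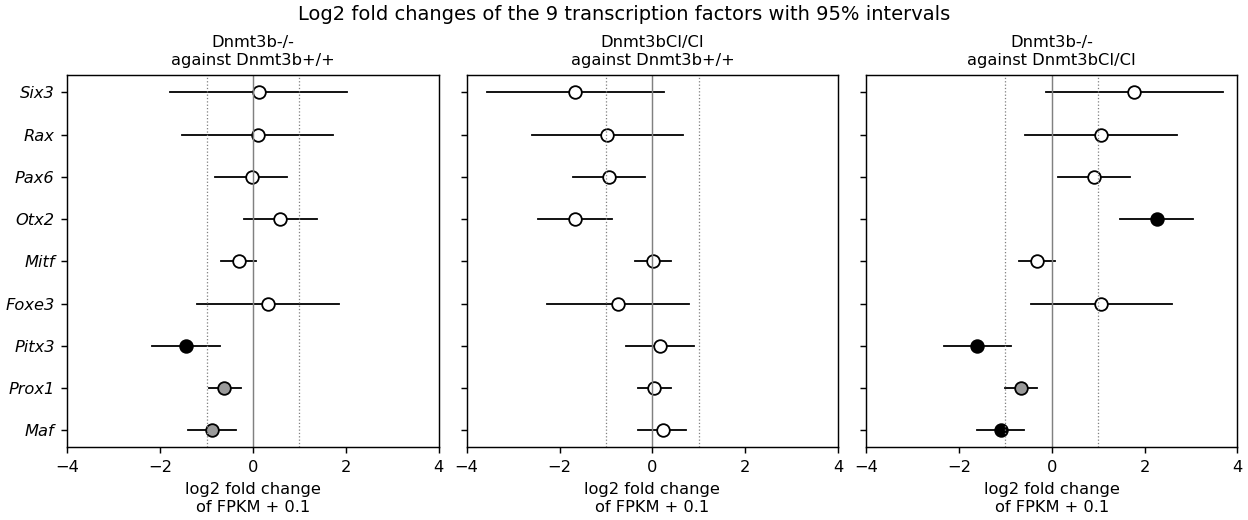
Log2 fold change of FPKM + 0.1 (horizontal axes) for each transcription factor in 3 comparisons, with 95% intervals from limma as lines and dotted lines at a 2-fold change. Black points were called, grey points passed the adjusted p threshold at less than 2-fold, and white points did not pass. *Pitx3* was called against both other genotypes, and the intervals of *Six3*, *Rax* and *Foxe3* spanned at least a 2-fold change in both directions in embryos labelled Dnmt3b-/- against Dnmt3b+/+.

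The eye field factors *Six3*, *Rax* and *Pax6* did not pass the test in any of the 3 comparisons. *Six3*, a sine oculis-type homeobox gene needed for forebrain and eye, stood at 2.38, 1.81 and 1.79 FPKM in Dnmt3b+/+ embryos, at 1.28, 2.22 and 3.51 FPKM in embryos labelled Dnmt3b-/- and at 0.986, 0.0382 and 1.79 FPKM in Dnmt3bCI/CI embryos. The embryos labelled Dnmt3b-/- surrounded the Dnmt3b+/+ range on both sides, and the log2 fold change was 0.12 with a 95% interval of -1.78 to 2.03. The lowest value rested on 9 reads in Dnmt3bCI/CI embryo 2, with a Poisson 95% interval of 0.0175 to 0.0725 FPKM that covers counting error only. *Rax*, the retina and anterior neural fold homeobox gene, stood at 1.48, 0.794 and 0.825 FPKM in Dnmt3b+/+ embryos, at 0.631, 0.930 and 2.01 FPKM in embryos labelled Dnmt3b-/- and at 0.494, 0.083 and 1.5 FPKM in Dnmt3bCI/CI embryos. All 3 genotypes overlapped, and the low Dnmt3bCI/CI value was again that of embryo 2, with 6 reads. The log2 fold change of *Rax* in embryos labelled Dnmt3b-/- against Dnmt3b+/+ was 0.10 with an interval of -1.54 to 1.73.

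*Pax6*, the paired-box gene required in retina and lens alike, stood at 2.42, 2.23 and 1.87 FPKM in Dnmt3b+/+ embryos and at 1.88, 1.67 and 2.98 FPKM in embryos labelled Dnmt3b-/-. The 2 groups overlapped, with a log2 fold change of -0.03 and an interval of -0.81 to 0.74. In Dnmt3bCI/CI embryos *Pax6* stood at 1.23, 0.585 and 1.70 FPKM, each of them below every Dnmt3b+/+ embryo. The log2 fold change there was -0.94, with an adjusted p of 0.88 from limma, and -0.55 without embryo 2. Without that embryo the Dnmt3bCI/CI against Dnmt3b+/+ changes of *Six3* and *Rax* moved from -1.66 and -0.97 to -0.54 and -0.17 on the log2 scale, and the adjusted p was 1.0 for all 3 genes.

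The lower eye field levels of Dnmt3bCI/CI embryo 2 stood beside low levels of other forebrain genes. Beside *Lhx2*, given above, *Six6*, an optic vesicle paralog of *Six3*, had 0 worked-back reads there against 0.133 and 0.221 FPKM in its 2 genotype mates. Over 18 forebrain and midbrain transcription factors outside the eye, the summed level was 27.7 to 45.5 FPKM in Dnmt3bCI/CI embryos and 54.3 to 76.6 FPKM in Dnmt3b+/+ embryos, and 0 of 18 were called in either direction. The part of these tissues in the values of *Six3*, *Rax* and *Pax6* was not tested. Of 16 eye field and neural retina regulators tested, 0 were called in either comparison with Dnmt3b+/+ embryos, and their median log2 fold change was 0.04 in embryos labelled Dnmt3b-/- and -0.28 in Dnmt3bCI/CI embryos.

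*Otx2* (chr14:48657677-48673819 in GRCm38, minus strand), a bicoid-type homeobox gene of forebrain, midbrain and pigment epithelium, stood at 2.51, 4.44 and 1.99 FPKM in Dnmt3b+/+ embryos, at 5.02, 2.67 and 5.83 FPKM in embryos labelled Dnmt3b-/- and at 0.715, 0.714 and 1.05 FPKM in Dnmt3bCI/CI embryos. Each Dnmt3bCI/CI embryo lay below every embryo of the other genotypes. *Otx2* was called higher in embryos labelled Dnmt3b-/- than in Dnmt3bCI/CI embryos, by 2.26 ± 0.35 (SE) on the log2 scale or 4.8-fold (adjusted p = 0.00306 from limma). Against Dnmt3b+/+ it did not pass in either mutant. The log2 fold change from limma was 0.59 (adjusted p = 0.24) in embryos labelled Dnmt3b-/-, or 0.91 (adjusted p = 0.0852) without Dnmt3b+/+ embryo 2 and 0.35 to 0.92 over all single embryos left out, and -1.67 (adjusted p = 0.323) in Dnmt3bCI/CI embryos. Without Dnmt3bCI/CI embryo 2 these Dnmt3bCI/CI contrasts were 2.18 and -1.59 on the log2 scale.

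Some other neural genes differed between the same groups as *Otx2*. Of 18 forebrain and midbrain factors, 2 were called higher and 0 lower in embryos labelled Dnmt3b-/- than in Dnmt3bCI/CI embryos. They were the *Otx2* paralog *Otx1* (log2 fold change 1.96, adjusted p = 0.0317 from limma) and *Lhx9* (1.00, adjusted p = 0.0107). Of 10 spinal cord and hindbrain progenitor factors, 3 were called higher and 0 lower, and the summed level of the list was 75.8 to 80.7 FPKM against 41.7 to 54.4 FPKM in Dnmt3bCI/CI embryos. The 3 genes were *Dbx1* and *Nkx2-2*, which mark progenitor domains of the neural tube, and *Msx1*. *Msx1* stood at 18.7, 27.6 and 29.7 FPKM against 10.6, 7.78 and 13.1 FPKM, a large part of that sum. Its values include any expression outside the neural tube. Over the list, 8 log2 fold changes were above 0 and 2 below. Of 9 midbrain dopaminergic genes tested, *Lmx1a*, a roof plate and floor plate factor, was the only 1 called (higher, log2 fold change 1.33). Over the list, 4 log2 fold changes were above 0 and 5 below, with a median of -0.10. *Th*, the tyrosine hydroxylase gene, and *Lmx1b* were lower in embryos labelled Dnmt3b-/- than in Dnmt3bCI/CI embryos (log2 fold changes -0.56 and -0.64, adjusted p = 0.0357 and 0.0264 from limma), below the fold requirement. The part of neural tissue content in the difference of *Otx2* was not tested.

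*Mitf*, the bHLH factor of pigment epithelium and melanoblasts, was the lowest of the 9 in Dnmt3b+/+ embryos. It stood at 0.372, 0.457 and 0.428 FPKM in those embryos, at 0.239, 0.319 and 0.418 FPKM in embryos labelled Dnmt3b-/- and at 0.460, 0.425 and 0.382 FPKM in Dnmt3bCI/CI embryos. The groups overlapped, and the log2 fold change in embryos labelled Dnmt3b-/- against Dnmt3b+/+ was -0.31 with an interval of -0.69 to 0.07. The values of the pigment enzyme gene *Dct* were 1.33, 1.15 and 0.88 FPKM in Dnmt3b+/+ embryos and 0.577, 0.957 and 1.18 FPKM in embryos labelled Dnmt3b-/-, with overlap. Of 8 pigment epithelium and melanoblast genes tested, 1 was called higher and 0 lower in that comparison. This was *Mlana*, a melanosomal protein gene, at 0.563, 0.717 and 0.475 FPKM against 0.0719, 0.0967 and 0.0409 FPKM in Dnmt3b+/+ embryos (log2 fold change 2.01, adjusted p = 0.00164 from limma). These values rest on 14, 19 and 12 reads against 2, 3 and 1 reads, so that the Dnmt3b+/+ level lay near the limit of detection. In Dnmt3bCI/CI embryos *Mlana* was at 0.286, 0.297 and 0.584 FPKM, above every Dnmt3b+/+ embryo, but was not called (adjusted p = 0.145). Over the list, 3 log2 fold changes against Dnmt3b+/+ were above 0 and 5 below in embryos labelled Dnmt3b-/-. Its summed level was 11.6 to 14.9 FPKM there and 15.9 to 18.6 FPKM in Dnmt3b+/+ embryos. *Sox10*, its highest gene in Dnmt3b+/+ embryos, had a log2 fold change of -0.85 (adjusted p = 0.0771 from limma). Against Dnmt3bCI/CI *Sox10* was called lower (-1.17, adjusted p = 0.0256).

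*Foxe3* (chr4:114925147-114926013 in GRCm38, minus strand), the forkhead factor of the lens epithelium, is the most lens-restricted of the 9. It stood at 0.853, 0.394 and 0.471 FPKM in Dnmt3b+/+ embryos, at 0.607, 0.516 and 1.11 FPKM in embryos labelled Dnmt3b-/- and at 0.36 and 0.9 FPKM in Dnmt3bCI/CI embryos 1 and 3. Dnmt3bCI/CI embryo 2 had 0 reads, where 3 reads would have given 0.0799 FPKM and the Poisson 95% limit was 0.0983 FPKM. The values of the embryos labelled Dnmt3b-/- lay within or above the Dnmt3b+/+ range. Their log2 fold change was 0.32, and a 2-fold difference either way lay within its interval of -1.20 to 1.85. It was 0.13 without Dnmt3b+/+ embryo 2 and 0.03 to 0.61 over all single embryos left out. The Dnmt3bCI/CI against Dnmt3b+/+ change was -0.75 with all embryos and 0.07 without embryo 2.

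Of 14 crystallin genes tested, 9 were called lower and 0 higher than in Dnmt3b+/+, and the summed level of the 16 listed was 9.03 to 12.1 FPKM against 55.5 to 89.7 FPKM. In Dnmt3bCI/CI embryos that sum was 48.7, 8.06 and 111 FPKM, so that embryo 2 lay below every embryo labelled Dnmt3b-/-, and 1 of the 14 was called lower in embryos labelled Dnmt3b-/- than in Dnmt3bCI/CI embryos. Without Dnmt3bCI/CI embryo 2, which shares the variance estimate, 13 were called lower, and without Dnmt3b+/+ embryo 2, 3. *Cryaa*, the alpha-A crystallin gene, stood at 36.1, 19.5 and 21 FPKM in Dnmt3b+/+ embryos, at 5.69, 3.09 and 6.43 FPKM in embryos labelled Dnmt3b-/- and at 16.4, 0.0175 and 42.9 FPKM in Dnmt3bCI/CI embryos, the 0.0175 FPKM being the deposited value for 0 worked-back reads. It was not called (log2 fold change -2.32, adjusted p = 0.378), with the spread of the Dnmt3bCI/CI embryos in the shared variance. Of 15 other lens differentiation genes tested, 0 were called, with a median log2 fold change of -0.36. The aquaporin gene *Mip* stood at 2.09, 1.25 and 1.02 FPKM in Dnmt3b+/+ embryos and at 0.468, 0.296 and 0.253 FPKM in embryos labelled Dnmt3b-/-, without overlap (log2 fold change -1.79, adjusted p = 0.073).

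Ratios between genes were also taken within each embryo, and were chosen after the values were seen. None passed after adjustment, and the part of tissue content or cell composition was not tested. The *Cryaa* to *Foxe3* ratio of FPKM values was 42.4, 49.5 and 44.5 in Dnmt3b+/+ embryos, 9.36, 6 and 5.79 in embryos labelled Dnmt3b-/-, and 45.5 and 47.7 in Dnmt3bCI/CI embryos 1 and 3. The ratio was undefined in Dnmt3bCI/CI embryo 2. The ratio of the Dnmt3b+/+ and Dnmt3bCI/CI embryos kept between 42.4 and 49.5 while *Foxe3* itself ranged from 0.36 to 0.9 FPKM, and the embryos labelled Dnmt3b-/- lay outside their range. The geometric mean was 6.6-fold lower in embryos labelled Dnmt3b-/- than in Dnmt3b+/+ embryos, with a two-sided exact permutation p of 0.1. That is the smallest p that 3 against 3 embryos allow, and it became 0.167 after Benjamini-Hochberg adjustment over the 10 ratios computed. Each *Foxe3* value behind these 8 ratios rests on 14 to 39 reads.

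Ratios to *Foxe3* of other fibre genes moved the same way. The *Crybb1* ratio was 16, 19.6 and 19.8 in Dnmt3b+/+ embryos, 1.30, 0.602 and 0.271 in embryos labelled Dnmt3b-/- and 20.3 and 19.8 in Dnmt3bCI/CI embryos 1 and 3. This was 30.8-fold lower in embryos labelled Dnmt3b-/- than in Dnmt3b+/+, *Crybb3* was 11-fold lower and *Mip* 5.51-fold (exact permutation p = 0.1 each). The ratios among early factors stood closer together between Dnmt3b+/+ embryos and those labelled Dnmt3b-/-. *Rax* to *Foxe3* was 1.73, 2.02 and 1.75 in Dnmt3b+/+ embryos and 1.04, 1.80 and 1.81 in embryos labelled Dnmt3b-/-, 1.22-fold lower (exact permutation p = 0.6). *Six3* to *Rax* was 1.61, 2.28 and 2.17 against 2.04, 2.39 and 1.75 (exact permutation p = 0.9). In Dnmt3bCI/CI embryos *Six3* to *Rax* was 2.0, 0.46 and 1.2, the value of embryo 2 resting on 9 and 6 reads. *Pitx3* to *Foxe3* spread from 4.10 to 13.1 in Dnmt3b+/+ embryos and from 0.991 to 4.84 in embryos labelled Dnmt3b-/- (exact permutation p = 0.2).

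**Figure D3:**
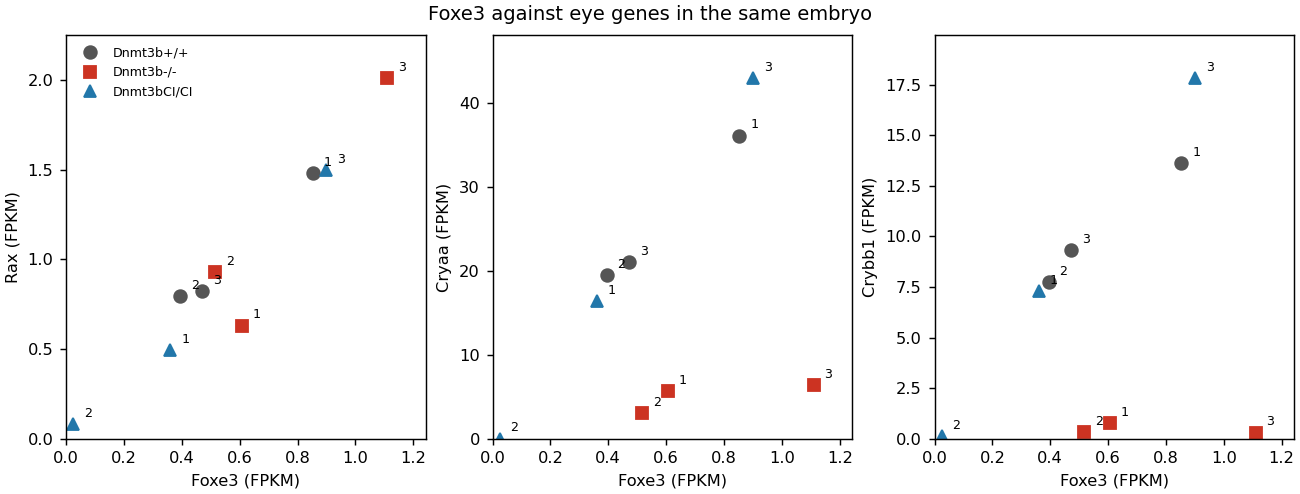
*Rax*, *Cryaa* and *Crybb1* (vertical axes, FPKM) against *Foxe3* (horizontal axes, FPKM) in each of the 9 embryos, marked by Dnmt3b genotype and numbered. For *Rax* the 3 genotypes share a trend, while for *Cryaa* and *Crybb1* the embryos labelled Dnmt3b-/- lie far below the other embryos of like *Foxe3* level, and Dnmt3bCI/CI embryo 2 sits near 0 on all axes.

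*Pitx3* (chr19:46135685-46148326 in GRCm38, minus strand), a bicoid-type homeobox gene of lens, dopaminergic neurons and skeletal muscle, was the only 1 of the 9 called between embryos labelled Dnmt3b-/- and Dnmt3b+/+. It stood at 3.49, 5.14 and 5.53 FPKM in Dnmt3b+/+ embryos, at 2.94, 1.34 and 1.10 FPKM in embryos labelled Dnmt3b-/- and at 5.15, 4.75 and 5.69 FPKM in Dnmt3bCI/CI embryos. The embryos labelled Dnmt3b-/- were all below the others, with embryo 1 nearest to them. *Pitx3* fell 2.72-fold against Dnmt3b+/+ (-1.45 ± 0.32 (SE) on the log2 scale, adjusted p = 0.0141 from limma) and 3.04-fold against Dnmt3bCI/CI (log2 fold change -1.60, adjusted p = 0.00845). The first of these calls did not hold without Dnmt3b+/+ embryo 3 or without embryo 2 of Dnmt3b-/- (adjusted p = 0.0523 and 0.0558), nor without embryo 2 of Dnmt3b+/+ and of Dnmt3bCI/CI together (adjusted p = 0.0654). In Dnmt3bCI/CI against Dnmt3b+/+ embryos the change was 0.16 with an interval of -0.57 to 0.89.

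*Maf* (chr8:115682942-115707794, minus strand), the large Maf factor of primary lens fibres, stood at 4.37, 4.70 and 5.58 FPKM in Dnmt3b+/+ embryos, at 3.94, 2.11 and 2.06 FPKM in embryos labelled Dnmt3b-/- and at 5.04, 6.22 and 5.78 FPKM in Dnmt3bCI/CI embryos. The embryos labelled Dnmt3b-/- again lay below all others, with embryo 1 the nearest. The log2 fold change against Dnmt3b+/+ was -0.89 (adjusted p = 0.0235), below the 2-fold requirement, and without embryo 1 of Dnmt3b-/- it was -1.18 and called. Against Dnmt3bCI/CI *Maf* fell 2.15-fold (log2 fold change -1.10, adjusted p = 0.0094), a call that missed the 2-fold requirement without embryo 2 or embryo 3 of Dnmt3b-/- (log2 fold changes -0.96 and -0.95). Reads of *Maf* cannot be told apart from those of the antisense gene *Gm15655* where the 2 overlap, since the strand setting is not given in the sources used here. The same holds for *Six3*, *Rax*, *Pax6*, *Otx2*, *Mitf*, *Pitx3* and *Prox1*, each of which has an overlapping gene on the opposite strand.

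*Prox1* (chr1:190118035-190170714, minus strand), the homeobox gene required for elongation of lens fibres, stood at 2.62, 2.64 and 2.11 FPKM in Dnmt3b+/+ embryos, at 2.01, 1.37 and 1.38 FPKM in embryos labelled Dnmt3b-/- and at 2.49, 2.62 and 2.47 FPKM in Dnmt3bCI/CI embryos. The groups did not overlap, and the difference was 1.53-fold against Dnmt3b+/+ (log2 fold change -0.62, adjusted p = 0.0205) and 1.58-fold against Dnmt3bCI/CI (log2 fold change -0.66, adjusted p = 0.0144), below the fold requirement in both. Against Dnmt3b+/+, neither *Prox1* nor *Maf* stayed below an adjusted p of 0.05 when Dnmt3b+/+ embryo 2 was left out (0.0596 and 0.0519), nor embryo 2 (0.0745 and 0.0843) or embryo 3 (0.0703 and 0.0785) of Dnmt3b-/-, nor in a fit of the 2 genotypes alone (0.063 and 0.0622). *Prox1* also missed it without Dnmt3b+/+ embryo 1 (0.0536) and *Maf* without Dnmt3b+/+ embryo 3 (0.0791). Against Dnmt3bCI/CI, the adjusted p of *Prox1* was 0.0533 without embryo 2 and 0.0537 without embryo 3 of Dnmt3b-/-, and 0.0543 without embryo 2 of both other genotypes. Among other sites of *Prox1* expression, 1 of 8 hepatoblast genes was called lower in embryos labelled Dnmt3b-/- than in Dnmt3b+/+, the transthyretin gene *Ttr*, and the summed level of that list was 46.4 to 94.7 FPKM against 37.1 to 232 FPKM. The lowest of these was Dnmt3b+/+ embryo 2, and Dnmt3b+/+ embryos 1 and 3 had 232 and 129 FPKM. Nearly all of the 37.1 FPKM of embryo 2 was *Ttr*, at 35.5 FPKM the highest *Ttr* value of any embryo. *Afp* and *Alb* had 0.119 and 0.103 FPKM there, so *Ttr* did not follow them. Without Dnmt3b+/+ embryo 2, 4 of the 8 were called lower and 0 higher, and the albumin gene *Alb* stood at 9.92, 19.2 and 9.67 FPKM against 85.7 and 43.7 FPKM. The part of liver tissue in the lower *Prox1* was not tested. Of 7 lymphatic and venous endothelial genes 0 were called in that comparison. *Lyve1*, a hyaluronan receptor gene, stood at 1.25, 1.07 and 0.811 FPKM against 2.0, 1.51 and 2.1 FPKM (log2 fold change -0.78, adjusted p = 0.0122 from limma, below the fold requirement). *Pdpn*, the podoplanin gene, had a log2 fold change of 0.49 (adjusted p = 0.0451) and *Flt4*, the VEGF-C receptor gene, of 0.21 (adjusted p = 0.142).

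*Pitx3*, *Maf* and *Prox1* are also expressed outside the eye, and genes of the 2 sites named above for *Pitx3* are given here. Sites of *Maf* outside the eye are not described here, so *Myog* is not given as a marker of one. *Myog*, the myogenin gene of differentiating skeletal muscle, stood at 16.4, 20.2 and 24.0 FPKM in Dnmt3b+/+ embryos, at 17.2, 5.76 and 5.87 FPKM in embryos labelled Dnmt3b-/- and at 25.6, 29.4 and 26.0 FPKM in Dnmt3bCI/CI embryos, with embryo 1 of Dnmt3b-/- apart from the other two as for *Pitx3*. Of 8 skeletal myogenic regulators, *Myod1* and *Myog* were called lower in embryos labelled Dnmt3b-/- than in Dnmt3b+/+ and 0 higher, and the summed level of the list was 16.9 to 36.0 FPKM against 34.0 to 47.1 FPKM. Neither was called without Dnmt3b+/+ embryo 2. *Myod1* and *Myog* make up most of that sum, and the list was mixed, with 3 log2 fold changes above 0, 5 below and a median of -0.26. *Pax3*, a factor of muscle progenitors and of neural tube, had a log2 fold change of 0.44 (adjusted p = 0.168 from limma). Of 9 midbrain dopaminergic genes, 0 were called, with a summed level of 15 to 17.6 FPKM against 16 to 22.5 FPKM and tyrosine hydroxylase (*Th*) at 1.02, 1.21 and 1.27 FPKM against 1.09, 1.79 and 1.41 FPKM. The part of muscle, or of any other tissue, in the lower *Pitx3*, *Maf* and *Prox1* was not tested.

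**Figure D4:**
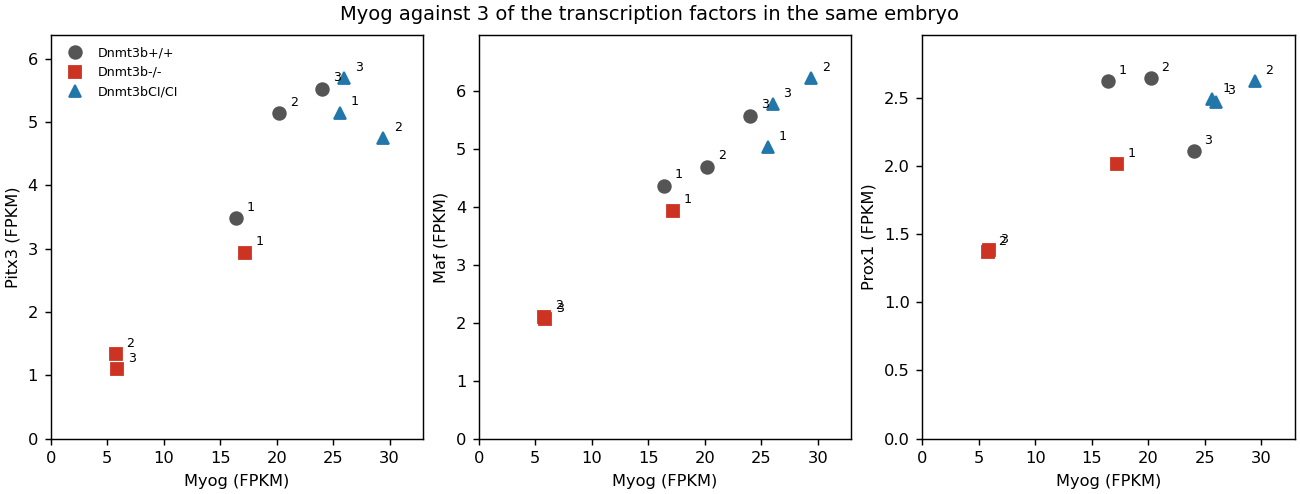
*Pitx3*, *Maf* and *Prox1* (vertical axes, FPKM) against *Myog* (horizontal axes, FPKM) in each of the 9 embryos, marked by Dnmt3b genotype and numbered. Embryos 2 and 3 labelled Dnmt3b-/- sit at the lower left of each panel, at 5.76 and 5.87 FPKM of *Myog*, and embryo 1 is the nearest of its group to the other embryos.

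Over the 9 embryos some of the transcription factors varied together, described here by Pearson's r of log2(FPKM + 0.1) with no test, since embryos of a genotype share it and Dnmt3bCI/CI embryo 2 weighs heavily. Among *Six3*, *Rax*, *Pax6* and *Foxe3*, r was 0.90 to 0.97, and 0.64 to 0.91 over the 8 embryos without Dnmt3bCI/CI embryo 2. Among *Pitx3*, *Maf* and *Prox1* it was 0.91 to 0.97, and 0.91 to 0.99 without that embryo. Many other genes were closer: over those 8 embryos *Prox1* ranked only 1612 among the genes closest to *Pitx3*, and *Maf* ranked 46. Over all 9 embryos *Otx2* and *Mitf* belonged to neither set, with r of 0.55 to 0.79 for *Otx2* and -0.26 to -0.10 for *Mitf* against the first. Without Dnmt3bCI/CI embryo 2, *Otx2* had an r of 0.78 with *Pax6*, within the range of the first set. With the others of that set it was 0.27 to 0.55. Between the sets r was negative in every pair, from -0.55 to -0.38 with all embryos. *Pitx3* and *Foxe3*, although both lens factors, had an r of -0.39. *Pitx3* and *Maf* had an r of 0.97 and 0.99 with *Myog*, and 0.93 and 0.98 for deviations from the genotype means. For such deviations *Prox1* had a lower r, of 0.59 with *Pitx3*, 0.65 with *Maf* and 0.71 with *Myog*. That of *Pitx3* with *Maf* was 0.90.

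Among 14741 genes with a mean of at least 0.5 FPKM, those closest to *Pitx3* were *Mmp9*, a matrix metalloproteinase gene (r = 0.996), *Anks6* (0.995) and *Gfra2*, a neurturin receptor gene (0.994). *Mmp9* stood at 0.684, 0.879 and 1.03 FPKM in Dnmt3b+/+ embryos, at 0.482, 0.193 and 0.139 FPKM in embryos labelled Dnmt3b-/- and at 0.988, 0.855 and 0.963 FPKM in Dnmt3bCI/CI embryos. The same search for the other factors was added after the values were seen. The gene closest to *Rax* was *Foxe3*, and that closest to *Foxe3* was *Rax* (r = 0.970). Without Dnmt3bCI/CI embryo 2, *Rax* was still the closest to *Foxe3* and *Foxe3* the second closest to *Rax* (r = 0.905). The antisense gene *Six3os1*, which overlaps *Six3*, was second closest to *Six3* (r = 0.984), after *Nr2e1*, a nuclear receptor gene of the forebrain (r = 0.988). Neither was among the 3 closest to *Six3* without Dnmt3bCI/CI embryo 2, where *Olig2* was first (r = 0.962).

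**Figure D5:**
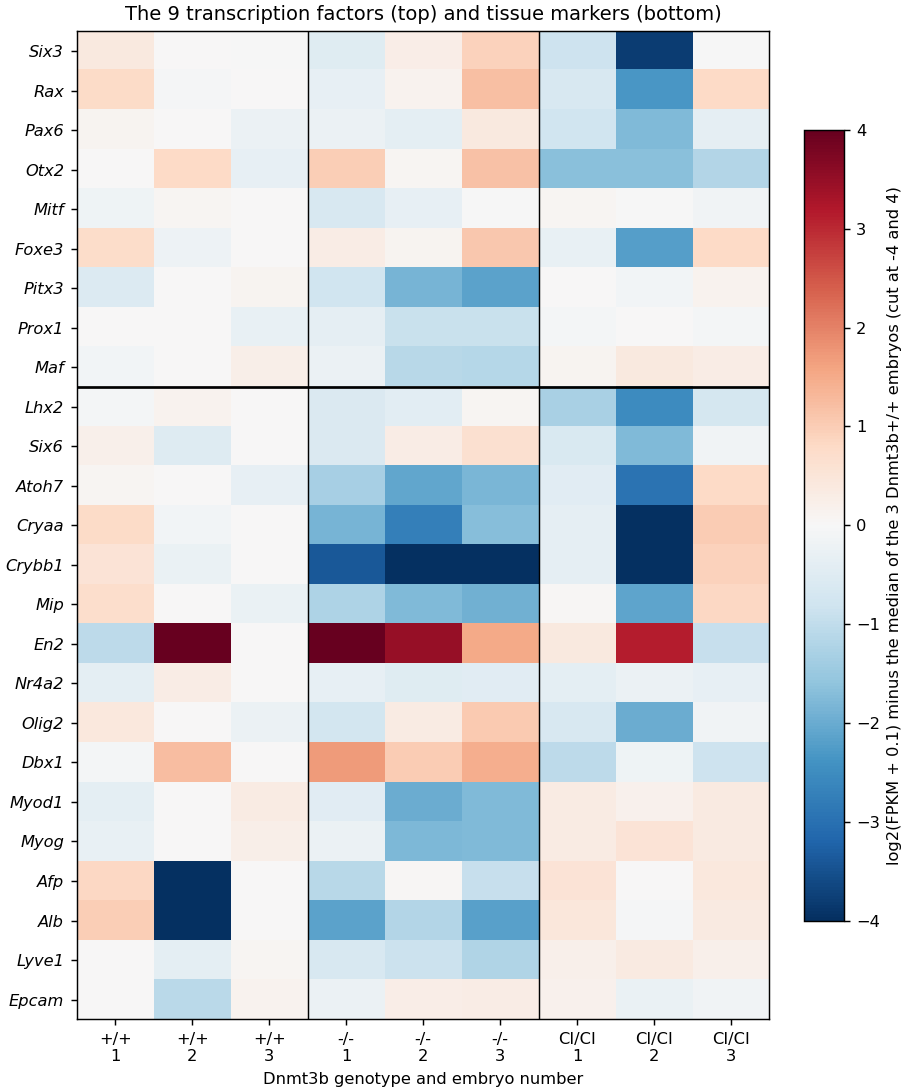
Level of the 9 transcription factors (above the line) and of marker genes of forebrain, retina, lens, midbrain, spinal cord, muscle, liver, endothelium and surface ectoderm (below it) in each embryo (columns), coloured by log2(FPKM + 0.1) minus the median of the 3 Dnmt3b+/+ embryos, red for higher and blue for lower, cut at -4 and 4. *Pitx3*, *Prox1*, *Maf*, *Myod1* and *Myog* are blue in embryos 2 and 3 labelled Dnmt3b-/-, *Six3*, *Rax*, *Foxe3*, *Lhx2* and *Cryaa* in Dnmt3bCI/CI embryo 2, and *Afp* and *Alb* in Dnmt3b+/+ embryo 2.

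Close relatives of the 9 factors were called in few cases. Of 20 paralogs tested, 0 were called in embryos labelled Dnmt3b-/- against Dnmt3b+/+ or in Dnmt3bCI/CI against Dnmt3b+/+, with median log2 fold changes of -0.01 and 0.00. Between the mutants 1 was called higher, *Otx1*, and 1 lower, *Mafa*, with a log2 fold change of -2.0 (adjusted p = 0.0498 from limma). Surface ectoderm, the tissue that gives rise to the lens, had 0 of 8 genes called in any comparison. The basal keratin gene *Krt5*, named after its values were seen, was at 13.4, 12.3 and 10.9 FPKM in embryos labelled Dnmt3b-/- against 21.5, 23.3 and 22.5 FPKM in Dnmt3b+/+ embryos (log2 fold change -0.88, adjusted p = 0.00187 from limma), below the fold requirement. The epithelial gene *Epcam* stood at 5.48, 2.55 and 6.01 FPKM in Dnmt3b+/+ embryos and at 4.65, 6.63 and 6.82 FPKM in those labelled Dnmt3b-/-, with overlap. Of 3 pituitary primordium genes tested, 0 were called in any comparison.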

How the data were processed

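RNA-seq of 9 whole E11.5 embryos was analysed (3 per genotype). The labels give separate embryos but no litter or sex. The other 9 samples of the series, which are methylation libraries, were not analysed here. The deposited values are FPKM per gene: the authors trimmed paired-end reads, aligned them with STAR to mm10, kept a mapping quality of at least 50 and quantitated them in SeqMonk. The annotation release and strand setting are not given in the sources used here. A gene without reads holds a small value above 0 (0.9 reads), and whole reads could be worked back from the values for 99.9% of genes, to within 0.05 reads.

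The 34244 named genes were reduced to 19397 with at least 0.1 FPKM in at least 3 embryos. Log2(FPKM + 0.1) was fitted with limma 3.58.1 in R 4.3.3 over all 9 embryos, with a variance trend and Benjamini-Hochberg adjustment. The procedure was tested on simulated data. Fold changes are on this scale and understate those of low genes. The test of the study, DESeq2, needs counts and was not run. Exact permutation tests and correlations used scipy 1.17.1 and numpy 2.4.6.

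The 9 factors and the 13 companion lists were chosen with earlier results of these data known. Genes named were all 9 factors, the first 3 of each list and up to 3 further called genes by size of change, any crystallin, *Dnmt3b*, and the 3 genes closest to a factor called in embryos labelled Dnmt3b-/- against Dnmt3b+/+. *Atoh7*, *En2*, *Krt5*, *Lmx1b*, *Nr2e1*, *Pax3*, *Six3os1* and *Gm15655* fall outside that rule and were picked with their values in view. Some genes of the lists are not reported here. Alternatives were other pseudocounts, filters, scalings, variance models, a replicate block, limma-voom on worked-back reads and leaving out embryos. Intervals of single values cover counting error only. Positions are from GENCODE M21 and promoters from RefSeq, both GRCm38.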

Additional observations from a re-analysis of the deposited data

How the results depend on the processing

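Leaving out each embryo in turn gave 0 to 2 of the 9 factors called in embryos labelled Dnmt3b-/- against Dnmt3b+/+, 0 in Dnmt3bCI/CI against Dnmt3b+/+, and 2 to 4 between the mutants. Leaving out embryo 2 of Dnmt3b+/+ and of Dnmt3bCI/CI together, an alternative chosen after seeing the data, gave 0 in the first comparison, and dropping the fold requirement gave 3 there, by construction. Some values changed sign, among them *Foxe3* in Dnmt3bCI/CI against Dnmt3b+/+ (-0.75 with all embryos, 0.07 without Dnmt3bCI/CI embryo 2). In embryos labelled Dnmt3b-/- against Dnmt3b+/+, the log2 fold change of *Pax6* was 0.01 with median-of-ratios scaling and 0.11 with quantile normalization, and that of *Rax* was -0.05 without both embryos 2. Leaving out single embryos gave -0.21 to 0.48 for *Six3*, -0.33 to 0.43 for *Rax* and -0.27 to 0.13 for *Pax6*. In Dnmt3bCI/CI against Dnmt3b+/+, *Mitf* was at -0.00 with median-of-ratios scaling and -0.05 with quantile normalization, and single embryos left out gave -0.06 to 0.07 for *Mitf*, -1.43 to 0.07 for *Foxe3*, -0.04 to 0.28 for *Pitx3* and -0.06 to 0.10 for *Prox1*. The call of *Maf* between the mutants was lost at a pseudocount of 1 FPKM (log2 fold change -0.89) and with quantile normalization (-0.98), where *Pax6* was called instead (1.09, adjusted p = 0.0474). *Pax6* was also called there without Dnmt3bCI/CI embryo 3 (1.21, adjusted p = 0.0429). Of 534 values of single factors under all alternatives, 507 kept their direction and side of the threshold. *Foxe3* was counted with 14 to 39 reads wherever it was detected, and its coefficient of variation between embryos of a genotype was 42.9 to 103 percent.

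The replicate numbers did not pair the embryos: deviations from the genotype means had a mean correlation of -0.0866 over 9 same-number pairs and 0.0478 over 18 others. With the replicate number as a block, 1, 0 and 3 factors were called in the 3 comparisons, as without it, and the adjusted p of *Pitx3* in embryos labelled Dnmt3b-/- against Dnmt3b+/+ was 0.0433. That of *Maf* there was 0.0607 with the block and 0.0522 without a filter on low values.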

Other observations

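*Atoh7*, the bHLH gene that retinal progenitors use to make ganglion cells, was compared with *Rax* in the same way as the lens genes with *Foxe3*. *Atoh7* stood at 1.17, 1.11 and 0.861 FPKM in Dnmt3b+/+ embryos, at 0.385, 0.188 and 0.242 FPKM in embryos labelled Dnmt3b-/- and at 0.793, 0.0567 and 1.98 FPKM in Dnmt3bCI/CI embryos, and was not called (adjusted p = 0.147 from limma). The *Atoh7* to *Rax* ratio was 0.792, 1.40 and 1.04 in Dnmt3b+/+ embryos, 0.610, 0.202 and 0.121 in embryos labelled Dnmt3b-/- and 1.61, 0.683 and 1.32 in Dnmt3bCI/CI embryos. It was 4.27-fold lower in embryos labelled Dnmt3b-/- than in Dnmt3b+/+ embryos, without overlap (two-sided exact permutation p = 0.1, the smallest that 3 against 3 embryos allow, 0.167 after Benjamini-Hochberg adjustment over 10 ratios).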
